A study of Mus musculus with 4 samples.

Results

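The Notch effectors Hes1, Hes5, Hes6, Hey1, Hey2, Heyl and Nrarp were followed in otic vesicles, the epithelial sacs that form the inner ear, taken from C57/BL6 mice at embryonic day 11.5. The 7 genes were taken by symbol from a table of 34866 genes, and 6 of them passed the filter for testing, as did 14496 genes in all. There were 2 libraries of Meis2 mutants, titled knockouts (KO 1 and KO 2), and 2 of wild-type embryos (WT 1 and WT 2). Meis2 encodes a homeodomain transcription factor, and the study asked which transcripts of the vesicle depend on it. The sources used here give neither the allele, the deleted part of Meis2 and any driver line, nor the number of embryos per library; a p-value here therefore reflects how far the libraries spread, which may be technical. Meis2 itself was at 73.2 and 76.6 TPM in KO, against 79.0 and 88.7 TPM in WT, and a value for the whole gene cannot show whether a part of it is missing. TPM (transcript abundance scaled to a sum of 1000000 per library) is per length, so levels can be set side by side between genes, but it keeps no depth, and the depth behind each value is unknown.

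Notch is a receptor that is cut when a ligand on the neighbouring cell binds it. Its freed intracellular part joins the DNA-binding protein RBPJ and switches on a small group of genes, of which the Hes and Hey genes are the best known. Hes1, Hes5, Hey1, Hey2 and Heyl encode basic helix-loop-helix repressors that hold back proneural genes such as Neurog1 and Atoh1, while mouse Hes6 opposes Hes1 and is itself switched on in cells that become neurons. Nrarp encodes an ankyrin repeat protein that binds the Notch and RBPJ complex and damps it. In the ear, Notch separates the neuroblasts that leave the vesicle from the epithelium that stays, and later hair cells from supporting cells.

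The stretches of genome before the transcription starts are shown because they separate members that carry RBPJ-type sequence there from members that do not. RefSeq windows on GRCm38.p6, from 250 bases before to 50 bases after each start, were at hand for 4 of the 7 members, Hes5, Hes6 (with 2 starts), Hey2 and Nrarp. Each line reads 5′ to 3′ on the gene's own strand and ends at the start, except that of Hey2, which ends 3 bases after it. Capitals mark GTGGGAA or its complement TTCCCAC in Hes5 and Hey2, and the E-box motifs CAGCTG in Hes6 and CACGTG in Nrarp.
Hes5 (chr4:154960673-154960922, plus strand): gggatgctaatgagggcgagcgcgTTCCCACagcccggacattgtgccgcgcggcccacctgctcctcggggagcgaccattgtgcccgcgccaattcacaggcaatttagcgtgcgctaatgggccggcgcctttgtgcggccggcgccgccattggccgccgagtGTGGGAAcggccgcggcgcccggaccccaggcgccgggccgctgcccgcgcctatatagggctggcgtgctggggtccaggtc
Hey2 (chr10:30842781-30843030, minus strand): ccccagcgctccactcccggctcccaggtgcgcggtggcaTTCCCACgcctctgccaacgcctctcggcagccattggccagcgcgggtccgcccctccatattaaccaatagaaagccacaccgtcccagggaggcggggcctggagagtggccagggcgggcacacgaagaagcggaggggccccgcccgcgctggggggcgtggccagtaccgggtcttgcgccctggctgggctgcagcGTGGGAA
Hes6 (chr1:91413223-91413472, minus strand): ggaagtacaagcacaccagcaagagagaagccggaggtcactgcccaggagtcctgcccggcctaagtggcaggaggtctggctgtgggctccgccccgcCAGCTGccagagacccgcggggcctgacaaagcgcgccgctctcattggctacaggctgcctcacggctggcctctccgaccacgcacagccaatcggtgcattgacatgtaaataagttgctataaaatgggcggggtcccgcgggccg
Nrarp (chr2:25180508-25180757, plus strand): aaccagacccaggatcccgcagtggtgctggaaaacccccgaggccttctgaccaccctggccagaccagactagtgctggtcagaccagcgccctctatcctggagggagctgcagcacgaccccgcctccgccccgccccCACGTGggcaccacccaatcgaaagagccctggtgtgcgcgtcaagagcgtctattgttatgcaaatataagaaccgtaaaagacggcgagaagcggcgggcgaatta

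The RBPJ-type motif GTGGGAA, searched on either strand, stood 2 times in the Hes5 window and 2 times in the Hey2 window. In Hes5 the matches covered positions -226 to -220 and -83 to -77 relative to the start, where -1 is the base just before it. In Hey2 they covered -207 to -201 and -4 to 3. The one farther from the start lay on the opposite strand and the nearer one on the gene's strand, in each gene. Of all 32851 RefSeq windows of 300 bases, 6.38% held at least 1 match and 0.256% at least 2. No match was found in the Nrarp window or in either Hes6 window, and the shorter core TGGGAA, which lies within GTGGGAA and occurs in 25.6% of windows, added none in any of these 5 windows. Both Hes6 windows held the E-box CAGCTG, a type of site bound by proneural factors (16.3% of windows), at -150 to -145 before the downstream start shown and at -171 to -166 before the upstream one. Nrarp held CACGTG at -108 to -103 (7.15% of windows), CAGCTG at 33 to 38 and the N-box CACNAG, a sequence that Hes proteins bind, at -179 to -174 and -79 to -74. The N-box also stood in the downstream Hes6 window, at -237 to -232 and 16 to 21, and is common, at 42.5% of windows. TGACAG, the sequence that Meis proteins bind, was found once, in the upstream Hes6 window at -161 to -156, and stood in 19.2% of all windows. These are matches of letters in a short window and say nothing of binding in these cells.

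**Figure D1:**
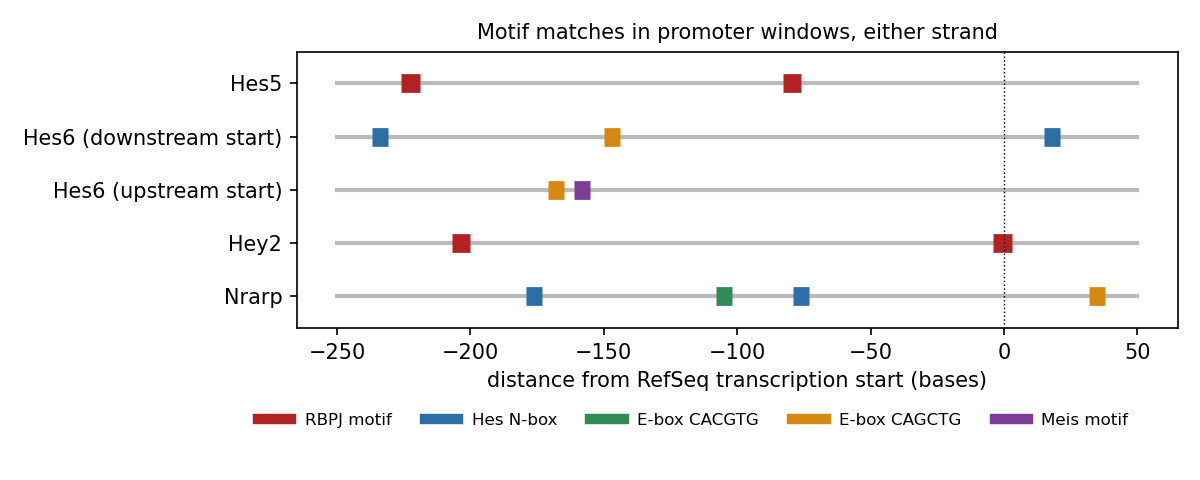
Motif matches on either strand in the RefSeq windows of Hes5, Hes6, Hey2 and Nrarp, by distance from the transcription start in bases. Coloured blocks are matches and grey lines the windows; the red RBPJ-type motif appears 2 times each in Hes5 and Hey2 and not in Hes6 or Nrarp.

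Hes6 had the most transcripts of the 7 in every library, and Hes5 the fewest. Hes6 averaged 90.9 ± 23.9 TPM in KO and 80.1 ± 18.5 TPM in WT (SD, n = 2 each), above 86.7% of the genes tested in KO and 85.0% in WT. Behind it came a group of 3: Hey1, Hes1 and Nrarp, between 32.2 and 46.2 TPM in all 4 libraries. Heyl and Hey2 lay lower, between 10.6 and 14.6 TPM. Together the 7 genes summed to 215 TPM in KO 1 and 255 TPM in KO 2, against 217 TPM in WT 1 and 245 TPM in WT 2. Hes6 made up 34.4% and 42.3% of that sum in KO and 30.9% and 38.0% in WT.

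Within the middle group the order was not the same in the libraries. The ratio of Hes1 to Hey1 was 1.22 in KO 1 and 0.949 in KO 2, against 0.880 in WT 1 and 0.893 in WT 2. Hes1 thus stood above Hey1 in KO 1 alone. The ranges of Hes1 and Hey1 overlapped in KO and did not in WT. Nrarp was below both in every library. Its range overlapped that of Hey1 in KO and that of Hes1 in WT, and lay clear of Hes1 in KO and of Hey1 in WT. Heyl exceeded Hey2 in 3 libraries, with a ratio of 1.10 in KO 1, 1.27 in KO 2 and 1.38 in WT 2, and 0.971 in WT 1.

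**Figure D2:**
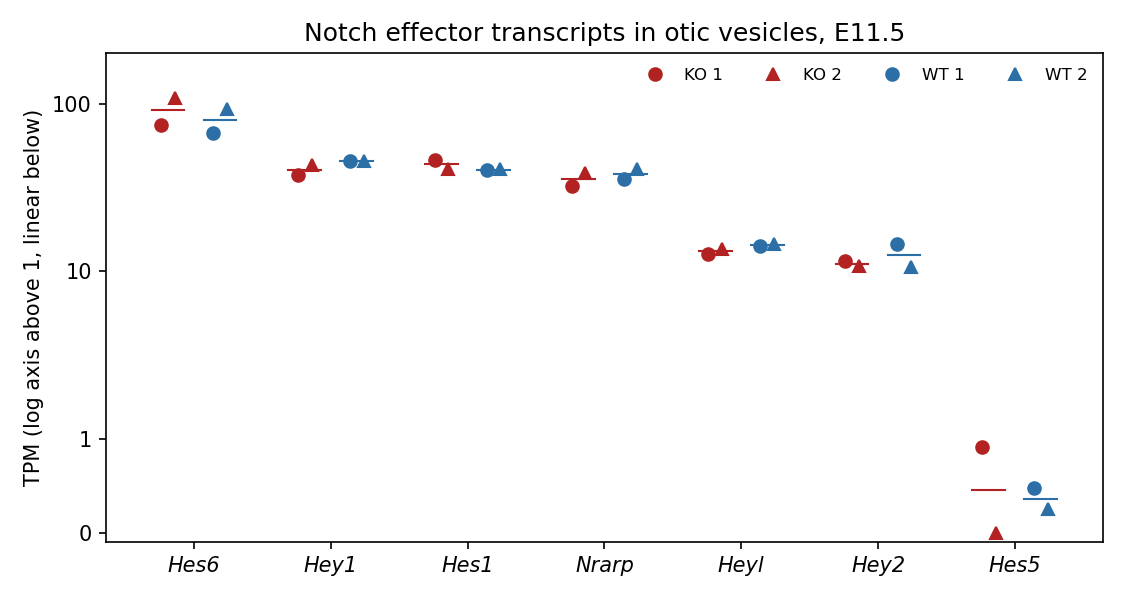
TPM of the 7 effectors in each library (red, KO 1 and KO 2; blue, WT 1 and WT 2; horizontal bars, means of 2 libraries), on an axis that is logarithmic above 1 and linear below. Hes6 lies highest, between 67.0 and 108 TPM, and Hes5 lowest, at no more than 0.913 TPM.

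Between the genotypes no effector passed the test. With limma on log2(TPM + 1), 0 of the 6 tested members had an adjusted p below 0.05 (each adjusted p = 1.00), where 0% of the 14496 genes did, and 0 of the 6 an unadjusted p below 0.05, where 3.5% (507 genes) did. The 6 tested members had a median log2 difference, KO minus WT, of -0.11, with 4 lower and 2 higher. Over all genes tested the median was 0.035 and 38.4% were lower. With 2 libraries per genotype, the smallest two-sided p an exact permutation test allows is 0.333. The 95% intervals from limma rest on the spread of the libraries, which may be technical, and carry the same limit as the p-values. On the log2(TPM + 1) scale the widest reached 0.82, for Hes6.

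Hes1 (ENSMUSG00000022528.7, chromosome 16, 30064384 to 30067796, GRCm38) is the repressor that keeps many progenitors from becoming neurons. It was at 46.2 TPM in KO 1 and 40.9 TPM in KO 2, against 40.0 TPM in WT 1 and 40.6 TPM in WT 2. The genotypes did not overlap, but KO 2 stood within 1 TPM of WT 2 and the distance came from KO 1. The log2 difference was 0.11 (SE 0.091; 95% interval -0.14 to 0.35; limma adjusted p = 1.00), and it was 0.02 without KO 1. On the fold scale the interval ran from 0.910 to 1.27.

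Hes6 (ENSMUSG00000067071.8, chromosome 1, 91411483 to 91414038) was at 74.0 TPM in KO 1 and 108 TPM in KO 2, against 67.0 TPM in WT 1 and 93.2 TPM in WT 2. The genotypes overlapped, and the library numbered 2 was the higher one in each. The log2 difference was 0.17 (SE 0.24; 95% interval -0.47 to 0.82; limma adjusted p = 1.00). It turned to -0.09 without KO 2 and to -0.06 without WT 1, and was 0.44 without KO 1 and 0.41 without WT 2.

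Hes5 (ENSMUSG00000048001.7, chromosome 4, 154960923 to 154962371), the repressor that often acts beside Hes1 in the nervous system, was near the bottom of the table. It was at 0.913 TPM in KO 1, against 0.476 TPM in WT 1 and 0.251 TPM in WT 2, and was listed at 0 in KO 2. With a mean of 0.41 TPM over the 4 libraries it fell below the filter of a mean of at least 1 TPM and was not tested. Both the highest and the lowest value came from KO. An annotated gene on the other strand, Gm20421, overlaps Hes5 and shares 25.7% of its 31-base words. Whether strand was used in counting is not stated, so reads from the shared stretch cannot be told apart.

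The Hey genes encode a second family of repressors that share their DNA-binding fold with Hes proteins, and Hey1 and Hey2 are known from the prosensory part of the mouse cochlea at later stages. Hey1 (ENSMUSG00000040289.8, chromosome 3, 8663359 to 8667256) was at 37.7 TPM in KO 1 and 43.1 TPM in KO 2, against 45.5 TPM in WT 1 and 45.5 TPM in WT 2. Each KO library was below each WT library. The log2 difference was -0.17 (SE 0.095; 95% interval -0.42 to 0.080; limma adjusted p = 1.00), and it was -0.08 without KO 1. It had the smallest unadjusted limma p of the 6 members, at 0.138.

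Heyl (ENSMUSG00000032744.4, chromosome 4, 123233556 to 123249875) gave 12.7 TPM in KO 1 and 13.6 TPM in KO 2, against 14.1 TPM in WT 1 and 14.6 TPM in WT 2. These too did not overlap, with a gap of about 0.5 TPM between KO 2 and WT 1 (13.59 and 14.09 TPM). The log2 difference was -0.12 (SE 0.10; 95% interval -0.39 to 0.16; limma adjusted p = 1.00), and it was -0.07 without KO 1. Hey2 (ENSMUSG00000019789.9, chromosome 10, 30832359 to 30842801) had 11.5 TPM in KO 1 and 10.7 TPM in KO 2, against 14.5 TPM in WT 1 and 10.6 TPM in WT 2. WT 1 stood above the other 3 libraries, which lay within 1 TPM of each other. The log2 difference was -0.14 (SE 0.18; 95% interval -0.61 to 0.32; limma adjusted p = 1.00), turned to 0.07 without WT 1 and was -0.36 without WT 2. Summed, the 3 Hey genes were at 61.9 TPM in KO 1 and 67.4 TPM in KO 2, against 74.1 TPM in WT 1 and 70.7 TPM in WT 2.

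Nrarp (ENSMUSG00000078202.3, chromosome 2, 25180758 to 25183339), the feedback inhibitor, was at 32.2 TPM in KO 1 and 38.7 TPM in KO 2, against 35.4 TPM in WT 1 and 40.5 TPM in WT 2. The genotypes overlapped, and within each the library numbered 2 was higher. The log2 difference was -0.10 (SE 0.13; 95% interval -0.44 to 0.24; limma adjusted p = 1.00). Without KO 1 it was 0.03, without WT 2 it was -0.00026, without KO 2 -0.22 and without WT 1 -0.19. An antisense gene, Gm38287, overlaps it and shares 78.2% of the 31-base words of Nrarp, so the same holds for most of Nrarp. Hes1, Hes6, Hey1, Hey2 and Heyl shared 0 such words with any other annotated gene.

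Among the 6 tested members, 1 (Hes1) was higher in KO with no overlap between the genotypes, where 19.2% of all genes tested were. Lower in KO with no overlap were 2 (Hey1 and Heyl), where 10.5% of all genes tested were.

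**Figure D3:**
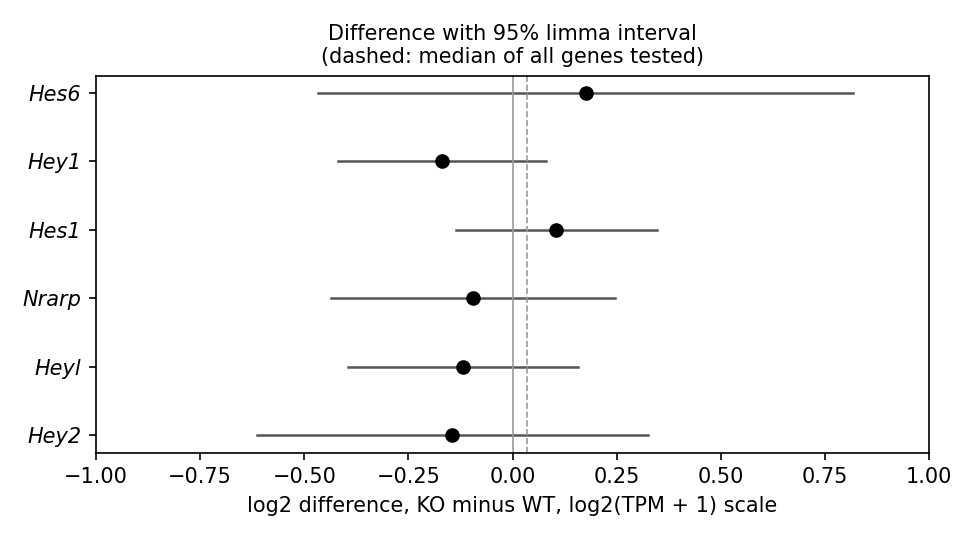
Log2 difference, KO minus WT, of the 6 tested effectors on the log2(TPM + 1) scale (points) with its 95% limma interval (lines); the dashed line is the median of all genes tested, 0.035. Every interval crosses 0, and that of Hes6 is the widest of the 6.

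Hes6 was the member that varied most among those tested, spanning 0.68 on the log2(TPM + 1) scale over the 4 libraries, where Heyl spanned 0.19 and Hes1 0.20. The span of Hes6 lay within the genotypes: KO 2 exceeded KO 1 by 0.54 and WT 2 exceeded WT 1 by 0.47 on that scale. Nrarp had the same pattern at a smaller size, 0.26 in KO and 0.19 in WT. Hey1 differed by 0.19 between the KO libraries and by 0.00089 between the WT libraries, and Hes1 by -0.17 and 0.02. Hey2 was the other way round from Hes6, with KO 2 minus KO 1 at -0.10 and WT 2 minus WT 1 at -0.42. The direction between libraries of 1 genotype thus differed among the members. Of 13509 coding genes tested, the 1 whose centred profile lay nearest to that of Hes6 was Notch1, which encodes a Notch receptor, at a Euclidean distance of 0.016 over 4 libraries. Notch1 was at 32.8 TPM in KO 1 and 47.9 TPM in KO 2, against 30.0 TPM in WT 1 and 41.3 TPM in WT 2. The next nearest were Pfkfb4, which encodes an enzyme that controls glycolysis (distance 0.025), and Srrm2, which encodes a splicing factor (0.037). Srrm2 read 222 and 328 TPM in KO 1 and KO 2, against 208.5 and 287 TPM in WT 1 and WT 2. With 4 libraries many genes lie near any profile, so these distances are a description.

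Several genes of the neurogenic lineage also stood higher in the libraries numbered 2 than in those numbered 1, and Neurod1, Nhlh1 and Nhlh2 by more than Hes6. The 9 proneural genes and their early targets summed to 61.6 TPM in KO 1 and 159 TPM in KO 2, against 59.4 TPM in WT 1 and 111.5 TPM in WT 2, which is the order of Hes6. Neurod1, the factor that carries otic neuroblasts toward neurons, was at 35.5 TPM in KO 1 and 95.3 TPM in KO 2, against 35.7 TPM in WT 1 and 68.1 TPM in WT 2. Nhlh2, a related helix-loop-helix gene, was at 12.1 and 31.4 TPM in KO 1 and KO 2, against 10.4 and 18.4 TPM in WT 1 and WT 2. Neurog1, the gene that starts otic neurogenesis, spanned less, with 6.35 and 7.83 TPM in KO 1 and KO 2, against 4.76 and 8.92 TPM in WT 1 and WT 2. Neurog3, a related gene, stood apart from them, at 1.17 and 1.24 TPM in KO, against 1.28 and 0.331 TPM in WT. Of the 9 proneural genes, 5 were tested; none passed (0 with an unadjusted limma p below 0.05). Their median log2 difference was 0.24, with 5 above 0 (Nhlh1 at 0.00023), where 38.4% of all genes tested were lower. That median was -0.0077 for KO 1 minus WT 1 and 0.52 for KO 2 minus WT 2. Neuron markers, led by the tubulin gene Tubb3 and the growth cone gene Gap43, were all 12 above 0 in every library. They summed to 336 and 870 TPM in KO 1 and KO 2, against 411 and 630 TPM in WT 1 and WT 2. Not every marker followed that order: Prph and Ntrk3 were lower in WT 2 than in WT 1. Prph was at 9.24 and 10.4 TPM in KO, against 7.28 and 5.96 TPM in WT, without overlap. It was the 1 marker of this list with an unadjusted limma p below 0.05 (0.0246), where 3.5% of all genes tested were. The part of the neuron markers in the Hes6 values was not tested. In bulk tissue, fewer cells of a type and less RNA per cell cannot be told apart.

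**Figure D4:**
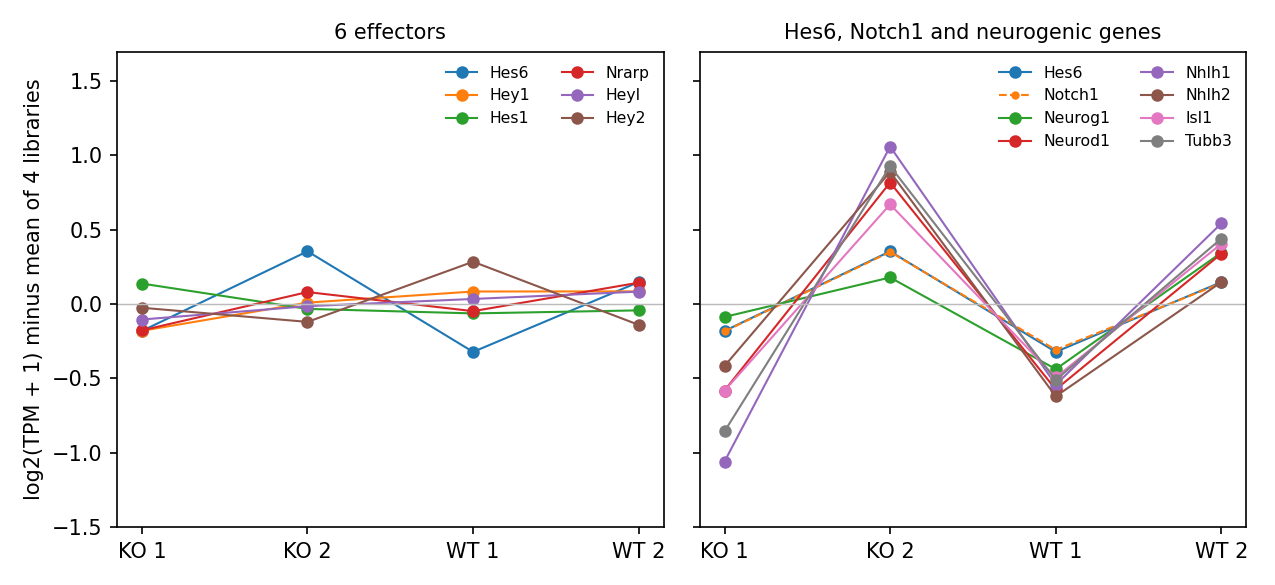
Log2(TPM + 1) of each gene minus its mean over the 4 libraries, for the 6 tested effectors (left) and for Hes6 with Notch1 and neurogenic genes (right); lines join the points of a gene and imply no order. Hes6 is high in KO 2 and WT 2 and low in KO 1 and WT 1, Notch1 overlies it, and Neurod1, Nhlh1, Isl1 and Tubb3 span more.

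Upstream of the effectors, the Notch machinery was also without a call. Over 6 lists (ligands, receptors, Fringe and other glycosyltransferases, cleavage enzymes, ligand endocytosis and turnover, and the RBPJ complex) 47 genes were tested. Of these 30 were higher and 17 lower, with a median log2 difference of 0.027, and 0 passed the limma test over all genes. At an unadjusted limma p below 0.05 there was 1 of the 47, Jag2, where 3.5% of all genes tested were. Without overlap 8 were higher and 6 lower, where 19.2% and 10.5% of all genes tested were.

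Of the 5 ligand genes, 2 were higher and 3 lower. Jag2, which encodes a Serrate-type ligand, was at 9.35 TPM in KO 1 and 11.6 TPM in KO 2, against 7.89 TPM in WT 1 and 6.65 TPM in WT 2. The genotypes did not overlap, with a log2 difference of 0.47 (SE 0.17; limma adjusted p = 1.00), from 0.33 to 0.62 with any library left out. Jag1, the ligand of the prosensory patch and the most abundant of the 5, was at 27.3 and 32.7 TPM in KO, against 28.5 and 37.7 TPM in WT, with overlap.

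The 4 receptor genes were split, 2 higher and 2 lower. Notch3, a receptor of smooth muscle and pericytes, was the most abundant, at 47.0 and 47.1 TPM in KO, against 47.8 and 49.1 TPM in WT. Of the 5 genes of Fringe and other glycosyltransferases 4 were higher, and the exception was Lfng, whose enzyme alters how Notch answers its ligands. Lfng was at 33.2 and 40.5 TPM in KO, against 38.9 and 61.6 TPM in WT, with overlap. Of 9 cleavage genes 6 were higher and 3 lower, and of 14 genes of ligand endocytosis and Notch turnover 11 were higher and 3 lower. Mib2, a ubiquitin ligase gene of that last list, had a log2 difference of 0.31 (SE 0.15; limma adjusted p = 1.00), from 0.17 to 0.45 with any library left out. Rbpj itself was at 46.2 and 45.7 TPM in KO, against 47.1 and 42.2 TPM in WT, and of the 10 genes of its complex 5 were higher and 5 lower.

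Hes and Hey proteins work with corepressors of the Groucho (Tle) family and are checked by Id proteins. Of the 13 tested genes of this list 6 were higher and 7 lower, with a median log2 difference of -0.0083. Tle1 was at 54.0 and 45.9 TPM in KO, against 42.8 and 42.0 TPM in WT. Tle4 stood on the other side, at 17.8 and 17.4 TPM in KO, against 21.5 and 20.2 TPM in WT, a log2 difference of -0.23 (SE 0.093; limma adjusted p = 1.00). In neither did the genotypes overlap. Of the 13 genes 2 were higher and 3 lower without overlap, where 19.2% and 10.5% of all genes tested were.

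The rest of the Hes family was scarce. Hes3 was listed at 0 in all 4 libraries, Hes2 was listed at 0 in KO 1 and KO 2 and was at 0.242 and 0.0235 TPM in WT, and Hes7, the clock gene of the somites, was between 0.365 and 0.537 TPM. Bhlhe40, a more distant relative, was the 1 of 6 tested, at 1.51 and 1.63 TPM in KO, against 1.65 and 2.14 TPM in WT.

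A last list held 12 genes that have been described as answering Notch in some tissue, Hey1 among them. Of these 5 were higher and 7 lower, with a median log2 difference of -0.085, and 0 passed the limma test over all genes. The proliferation gene Myc was at 9.99 and 9.32 TPM in KO, against 17.9 and 18.5 TPM in WT, a log2 difference of -0.85 (SE 0.11; limma adjusted p = 1.00), from -0.90 to -0.81 with any library left out. Gata3, a regulator of the cochlear part of the vesicle, was at 32.9 and 38.9 TPM in KO, against 45.4 and 46.7 TPM in WT (log2 difference -0.36, SE 0.11; limma adjusted p = 1.00). Cdkn1a, a cell cycle inhibitor gene named after its values were seen, was at 14.2 and 17.0 TPM in KO, against 20.0 and 25.9 TPM in WT (log2 difference -0.52, SE 0.17; limma adjusted p = 1.00; from -0.70 to -0.35 with any library left out). Those 3 were the genes of the list with an unadjusted limma p below 0.05, where 3.5% of all genes tested were.

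**Figure D5:**
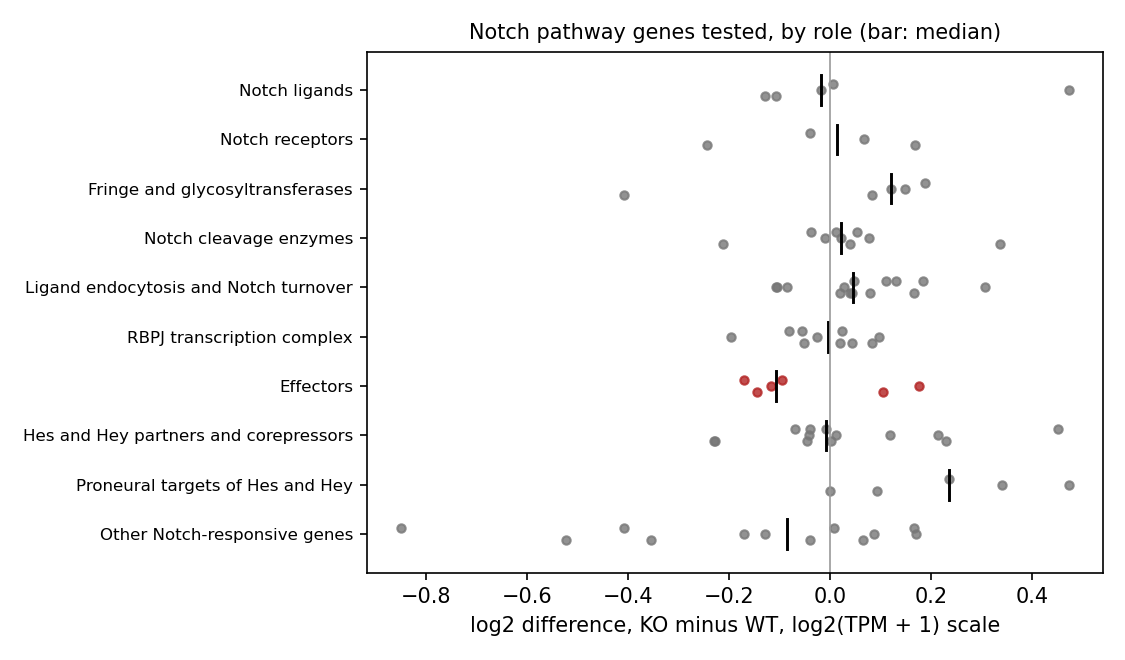
Log2 difference, KO minus WT, of each tested gene of the Notch pathway lists on the log2(TPM + 1) scale, by role from ligands to responsive genes; points are genes, black bars medians and red the 6 tested effectors. The effectors lie between -0.17 and 0.17, inside the spread of the other lists, and Myc is the point farthest from 0.

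The libraries held the labelled tissue and others beside it. All 12 otic epithelium markers were above 0 in every library; their summed level was 1268 and 1351 TPM in KO, against 1688 and 1530 TPM in WT, and 10 of 12 were lower in KO, 8 of them without overlap, where 38.4% and 10.5% of all genes tested were. Oc90, the otoconial matrix gene that leads the list, had a log2 difference of -0.48 (SE 0.13; limma adjusted p = 1.00), from -0.65 to -0.32 with any library left out. Endothelial cells also use Hey1, Hey2, Heyl and Nrarp; their 12 markers summed to 345 and 281 TPM in KO, against 272 and 298 TPM in WT, with 10 of 12 higher, 7 higher and 1 lower without overlap (19.2% and 10.5% of all genes tested), and 0 at 0 in any library. The endothelial factor gene Erg had a log2 difference of 0.73 (SE 0.13; limma adjusted p = 1.00). Pecam1, a surface marker of the same cells, was on the other side, at 38.7 and 31.3 TPM in KO, against 42.2 and 54.9 TPM in WT (log2 difference -0.46, SE 0.17; limma adjusted p = 1.00). Smooth muscle and pericyte markers, where Heyl and Notch3 are used, summed to 81.7 and 59.7 TPM in KO, against 75.0 and 69.4 TPM in WT. That sum is led by Pdgfrb and Tagln, with log2 differences of 0.21 and 0.20, both with overlap. Of 7 tested genes of the list 4 were higher and 3 lower, where 38.4% of all genes tested were lower. Without overlap 1 was higher and 3 lower (19.2% and 10.5% of all genes tested). Acta2, the smooth muscle actin gene, was at 3.596 and 2.18 TPM in KO, against 10.99 and 9.99 TPM in WT (log2 difference -1.58, SE 0.23; limma adjusted p = 1.00). Rgs5, a pericyte gene, was at 1.15 and 1.56 TPM in KO, against 2.44 and 2.74 TPM in WT, and Cnn1, not tested, was at 0.543 and 0.341 TPM in KO, against 1.36 and 1.33 TPM in WT. Periotic mesenchyme markers summed to 1457 and 998 TPM in KO, against 1064 and 891 TPM in WT, with overlap. Of these 12 markers 11 were higher, where 38.4% of all genes tested were lower. Without overlap 4 were higher and 1 lower (19.2% and 10.5% of all genes tested). Hindbrain markers summed to 264 and 211 TPM in KO, against 191 and 145 TPM in WT, without overlap. Most of that sum is Zic1 and Zic2. Zic1 was at 146 and 129 TPM in KO, against 106.5 and 77.2 TPM in WT (log2 difference 0.60, SE 0.17, limma adjusted p = 1.00). Zic2 was at 87.3 and 62.7 TPM in KO, against 62.8 and 44.15 TPM in WT, with overlap. Of 5 tested genes 3 were higher and 2 lower, Pax3 (-0.05) and Hoxb2 (-0.03). The rest were not tested, and Gsx1 was listed at 0 in every library. The hair cell factor genes Atoh1, Pou4f3 and Gfi1 were at 0.484 TPM or less in every library, while the myosin genes of the same list were not low, Myo7a at 15.6 and 20.5 TPM in KO, against 18.3 and 22.5 TPM in WT, and Myo6 at 14.1 and 18.0 TPM in KO, against 11.8 and 13.6 TPM in WT. The part of these tissues in the Hes1, Hey and Nrarp values was not tested.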

How the data were processed

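RNA of otic vesicles from 4 libraries (2 Meis2 mutant, 2 wild-type) was measured. The authors deposited TPM per gene. Salmon 0.9.1 and GRCm38 come from the submitters' processing notes; annotation release, strand setting and summing of transcripts go unstated. Each library summed to 1000000 TPM, with 20829 to 21685 genes above 0; as depth is unknown, no counting intervals are printed. Gene IDs were matched by number to GENCODE M21 (34652 of 34866 named). The 14496 genes averaging 1 TPM or more were fitted by genotype on log2(TPM + 1) with limma 3.58.1 (R 4.3.3), using a mean-variance trend, two-sided p and Benjamini-Hochberg adjustment over all genes (threshold 0.05); such differences understate changes of low genes. The fit was tested on simulated data. Lists were described by counts and medians, with no list test; Tle5 was matched through a synonym (Aes). Words of 31 bases shared between genes came from GENCODE M21 transcripts, and promoter windows from RefSeq. The members, lists and motifs were chosen with earlier results of these data known. Genes named from a list are among the 2 with the smallest p and the 2 with the highest mean TPM; the 3 nearest profiles are named for tested members spanning at least 0.5 (log2); Hes5, untested, has none. Rbpj, Neurog1, Cdkn1a, the scarce Hes genes, the plotted Nhlh1, Isl1 and Tubb3 and the cell type markers given are named beyond that rule. Alternatives changed the pseudocount, filter, scaling, variance trend, gene set and libraries, or added the replicate number as a block.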

Additional observations from a re-analysis of the deposited data

How the results depend on the processing

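No alternative called any effector, and Hes1, Hey1 and Heyl kept their direction in all 13. For Hes1, Hey1 and Heyl the genotypes did not overlap, so leaving out a library could not turn the direction. Hes1 ranged from 0.02 to 0.19, Hey1 from -0.26 to -0.08 and Heyl from -0.16 to -0.07 with a library left out. Hes6 was at -0.0935 without KO 2 and -0.0604 without WT 1 (range -0.0935 to 0.443), Hey2 at 0.0673 without WT 1 (range -0.357 to 0.0673) and Nrarp at 0.0329 without KO 1 (range -0.225 to 0.0329). Hes5, untested, was at 0.03 and turned to -0.50 with a pseudocount of 0.1 TPM, -0.44 without KO 1 and -0.09 without WT 2, up to 0.49 without KO 2; it has no value with either scaling or under the stricter filter (5 TPM). With no filter it was fitted (0.03, SE 0.36; limma adjusted p = 1.00). Over all genes limma called 2 without KO 1 and 10 without KO 2, against 0 in every other fit; leaving out a library thus gave 0 to 10. Where a direction turned, the cause was not tested. Outside the members, Jag2, Myc, Gata3, Cdkn1a, Oc90, Erg, Mib2 and Tle4 kept their direction in all 13. In none of them did the genotypes overlap, so with a library left out that outcome was fixed in advance. Most were also named by their p in these same data, so the kept direction is no support for a difference. Other named genes were not refitted.

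The labels do not say that a replicate number marks a shared litter or day. Deviations of same-numbered libraries correlated at 0.423 over 14496 genes, with 2 pairs. With the replicate block 0 genes passed. Hes6 kept its difference of 0.17 with an SE of 0.058 in place of 0.24 (limma adjusted p = 0.60) and was the 1 member with an unadjusted limma p below 0.05. Hes1 was at 0.11, Hey1 at -0.17, Hey2 at -0.14, Heyl at -0.12, Nrarp at -0.10 and Hes5 at 0.03 there. Genes with such an unadjusted p numbered 507, against 1178 with the block, 951 with no filter and 336 without WT 2. Depth limits are unknown for TPM, and Hes5 is too low to compare.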
